A study of Mus musculus with 6 samples.

Results

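The comparison described here set hearts of wild-type mice after 28 days of angiotensin II (Ang II) infusion against hearts after 7 days. The agent was delivered under the skin by ALZET osmotic pumps at 1000 ng/kg/min, and the animals of both groups carried no other stated allele or treatment. Each group held 2 RNA-seq libraries, and 2 libraries of day 0 hearts, called controls below, were used only to place levels. The labels give neither the strain, age or sex of the mice nor the time of day of collection, and they do not say whether a day 0 animal carried a pump. Nor do they say whether libraries came from separate mice, so p-values measure the spread between these libraries, which may be technical.

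Genes entered the comparison if their mean level over the 4 Ang II libraries was at least 1 RPKM (a read density set against transcript length and the number of mapped reads). That left 11115 of 22556 genes in the table, while 5310 were at 0 in these 4 libraries. The lowest mean level tested was 1.001 RPKM and the highest left out was 0.9991 RPKM. The controls had no part in the choice. Heart identity was clear in every library: Myh6, the adult ventricular myosin heavy chain, ranged from 4163 to 5707 RPKM, and Tnnt2, cardiac troponin T, from 5844 to 7292 RPKM. Sequencing depth, read from the step between low RPKM values, was 0.977 in the second 7-day library relative to the first, and 0.845 and 0.763 in the 28-day libraries. The number of genes above 0 ranged from 15661 to 16036 over the 4 Ang II libraries.

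Ang II is the effector peptide of the renin-angiotensin system. Through its type 1 receptor it constricts vessels, raises blood pressure and acts on cardiac myocytes, fibroblasts and leukocytes. In the mouse heart its infusion is known for an early phase of monocyte entry, fibroblast proliferation and collagen synthesis, together with hypertrophic growth of myocytes. Collagens and matricellular proteins are made mainly by fibroblasts, whereas natriuretic peptides and fetal sarcomere genes are made by stressed myocytes.

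Windows from the promoters of 6 genes are given first, because the interferon, cell cycle and clock genes described below are known for shared promoter elements. They come from RefSeq on GRCm38.p6, run 5′ to 3′ on the strand of the gene, and lie within the 250 bases before its start. Capitals mark a match on either strand to the interferon-stimulated response element (GAAA, any 2 bases, GAAA) in the first 3, to CCAAT in the next 2, and to the E-box CACGTG in the last.
Ifit3, chr19:34583382-34583441, plus strand: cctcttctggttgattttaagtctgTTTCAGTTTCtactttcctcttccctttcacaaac
Gbp3, chr3:142559980-142560039, plus strand: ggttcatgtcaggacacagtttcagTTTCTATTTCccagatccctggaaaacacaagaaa
Cxcl10, chr5:92349068-92349127, minus strand: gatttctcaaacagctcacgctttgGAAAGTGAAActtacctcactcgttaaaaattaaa
Ccnb2, chr9:70421555-70421600, minus strand: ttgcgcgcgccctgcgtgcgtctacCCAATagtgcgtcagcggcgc
Top2a, chr11:99024218-99024272, minus strand: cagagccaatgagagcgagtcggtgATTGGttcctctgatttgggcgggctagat
Tef, chr15:81802521-81802576, plus strand: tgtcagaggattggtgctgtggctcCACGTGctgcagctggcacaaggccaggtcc

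Far more genes fell than rose between 7 and 28 days. By limma, with an adjusted p under 0.05, 305 genes fell (2.74% of those tested) and 28 rose (0.252%), together 3.0%. Among the falling genes were those for interstitial collagens, matricellular proteins, cell division, macrophages and the interferon response. Among the rising ones were clock outputs, the Z disc gene Tcap and atrial myosin light chains. Of the genes that fell, 206 did so by over 2-fold and 32 by over 4-fold on the log2(RPKM + 0.5) scale, and of those that rose 19 and 4 passed the same folds. The whole distribution leaned the same way: the median log2 difference, 28 minus 7 days, was −0.13 over all tested genes, with 7958 below 0 and 3157 above. Libraries of the groups did not overlap for 41.5% of genes in the lower direction and 8.97% in the higher, and an unadjusted p under 0.05 was reached by 15.7% and 2.25%.

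These calls need both 7-day libraries. Without the first of them 4 of the 328 called genes still tested passed the threshold, and without the second 3 of 309 did, with median adjusted p of 0.138 and 0.292 among them in limma. All of the 328 and of the 309 kept their direction with an unadjusted p under 0.05. Postn and the short RNA gene Snord22 passed in both cases, Dbp and the interferon-stimulated Ifi27l2a without the first library, and Hbb-b2 without the second. Scaling each library to the median ratio, which brings the median of all genes to 0.01, gave 43 genes higher and 180 lower, so that 19.3% of calls were higher against 8.41%. Quantile normalization gave 21 higher and 101 lower, or 17.2% higher, and with no filter on low values Postn and Snord22 alone passed.

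**Figure D1:**
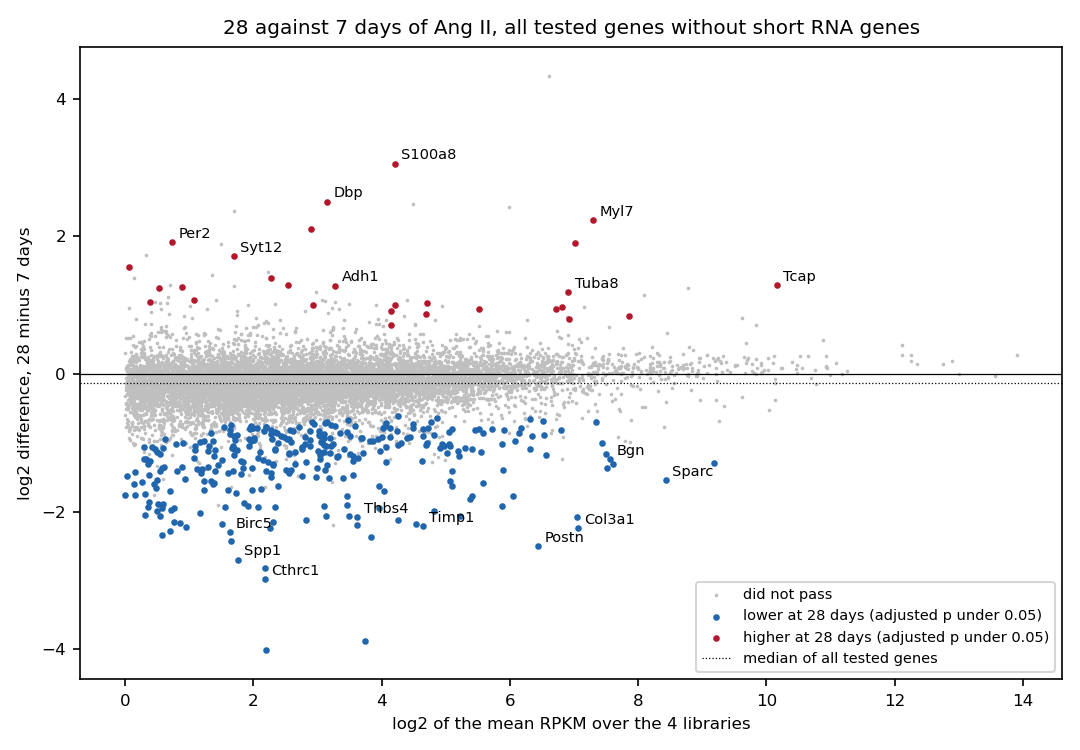
Log2 difference, 28 minus 7 days, against the log2 of the mean RPKM over the 4 Ang II libraries, 1 point a gene, short RNA genes left out. Genes that fell (blue) and rose (red) by adjusted p, all called genes but Snord22, stand apart from the grey remainder, and the dotted line is the median of all genes at −0.13.

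Levels at 28 days were also set beside those of day 0. Of the 305 genes that fell, both 28-day libraries stayed above both controls for 103, lay below both for 101 and overlapped them for 101. The same counts over the 28 genes that rose were 14, 7 and 7. Over all tested genes the 28-day libraries stood above both controls for 29.3% and below both for 25.3%. The falling genes, at 33.8% and 33.1%, were near these shares, so nothing is read from their counts, and no test against controls was made.

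**Figure D2:**
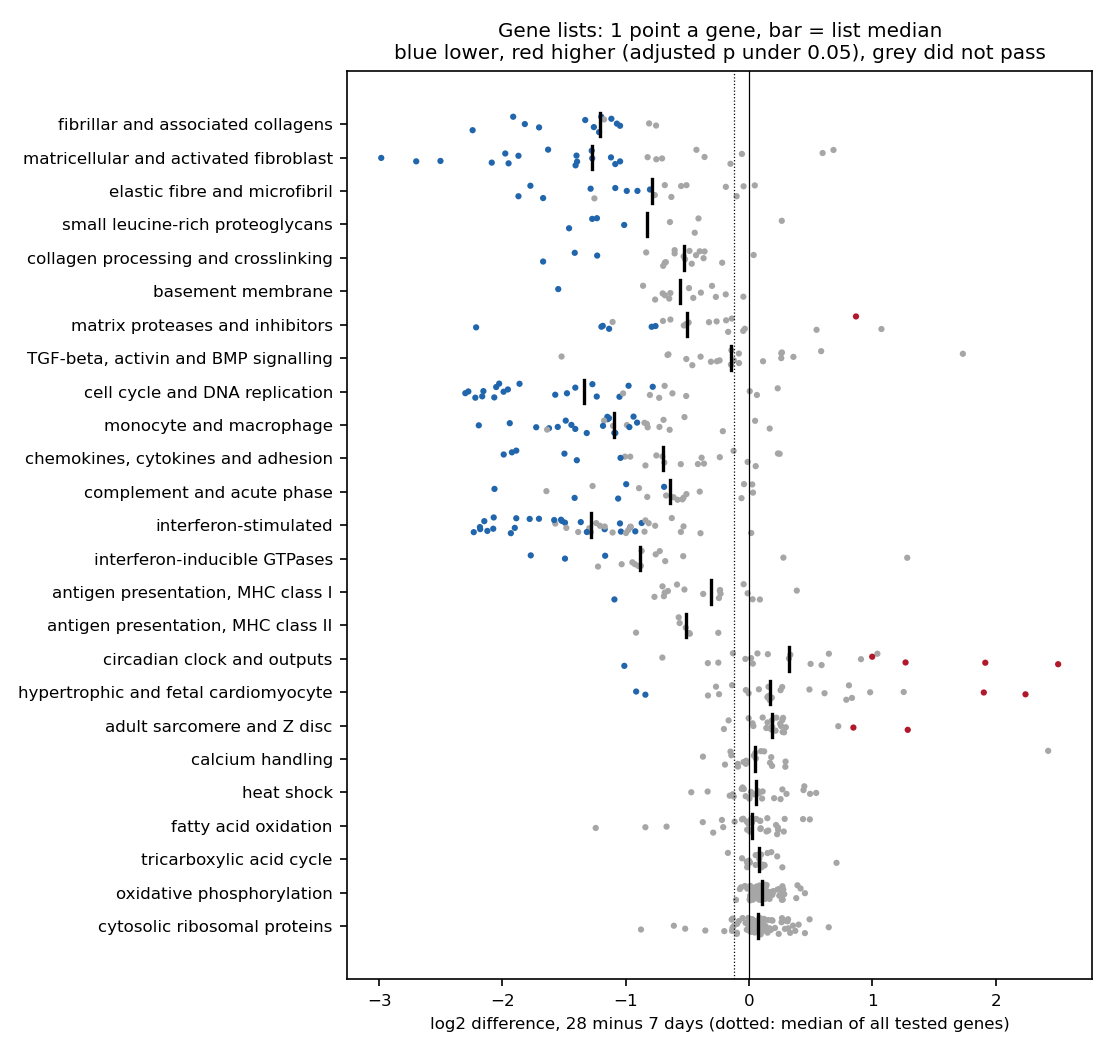
Log2 difference, 28 minus 7 days, for members of gene lists, 1 point a gene, with a bar at each list median and a dotted line at the median of all tested genes (−0.13). Collagen, matricellular, cell cycle, macrophage and interferon lists have their bars left of the dotted line. The points farthest to the right are Dbp (clock), Sln (calcium handling) and Myl7 (hypertrophic and fetal).

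Interstitial collagen transcripts fell together. Of 14 tested fibrillar and associated collagens, 11 fell and none rose, with a list median of −1.21 against −0.13 for all genes; no member was higher at an unadjusted p under 0.05 in limma either. Col3a1, the chain of type III collagen, stood at 205 and 235 RPKM at 7 days and at 38.9 and 54.5 at 28 days, with controls at 33.7 and 38. Its groups were far apart, and it fell by 2.24 on the log2 scale (SE 0.18, limma adjusted p = 0.00688). Col1a1, the main chain of type I collagen, went from 55.3 and 75.1 to 15 and 21.4 RPKM, against 10 and 11.6 in controls. It fell by 1.82 (SE 0.21, limma adjusted p = 0.013). Its partner chain Col1a2 had 85.1 and 101 RPKM at 7 days and 21.4 and 27.4 at 28 days, beside 21.7 and 21 in controls, so that one 28-day library reached the controls. For 11 of the 14 collagens (78.6%, against 29.3% of all tested genes) both 28-day libraries were still above both controls, and for the other 3 they overlapped. The count of falling collagens was 10 with median ratio scaling and 6 with quantile normalization.

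Matricellular proteins, which signal to cells from the matrix without bearing load, included some of the steepest falls. Of 25 tested genes of this kind and of activated fibroblasts, 16 fell and none rose, with a median of −1.27. Cthrc1 and Spp1, described below, passed the level filter only through the 7-day libraries (mean 0.634 and 0.538 RPKM at 28 days). The count and the median are therefore partly set by that filter. Postn, periostin, a product of activated fibroblasts, read 148 RPKM in both 7-day libraries and 26.6 and 24.9 at 28 days, beside 14.2 and 13.3 in controls. The 4 Ang II values left a wide gap, and Postn fell by 2.50 on the log2 scale (SE 0.12, limma adjusted p = 0.00104). Cthrc1, a secreted protein of fibroblasts in injured tissue, was at 9.08 and 7.78 RPKM and then at 0.763 and 0.506, with controls at 0.225 and 0. It fell by 2.98 (SE 0.18, limma adjusted p = 0.00348).

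Spp1, osteopontin, an adhesive cytokine of macrophages and fibroblasts, passed from 5.64 and 6.88 RPKM to 0.607 and 0.47, and fell by 2.70 (SE 0.18, limma adjusted p = 0.00472). Its controls were at 0.346 and 0.114, under both later values. Thbs4, a thrombospondin of strained heart and tendon, was at 20.9 and 19.6 RPKM at 7 days and at 3.9 and 4.91 at 28 days, 4.25-fold apart in the log2(RPKM + 0.5) fit. It remained well above its controls at 0.914 and 0.754 RPKM. Over the 25 genes the 28-day libraries lay above both controls for 20 (80.0%, against 29.3% of all tested genes) and below both for 2. Ctgf, a matricellular gene induced by strain and TGF-beta, showed no such separation. Its libraries read 218 and 69.8 RPKM at 7 days and 342 and 115 at 28 days, against 21.6 and 42.9 in controls. The groups overlapped (log2 difference 0.68, SE 0.62, limma adjusted p = 0.608), and the sign turned without the second 7-day library (−0.13) or the first 28-day library (−0.10).

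**Figure D3:**
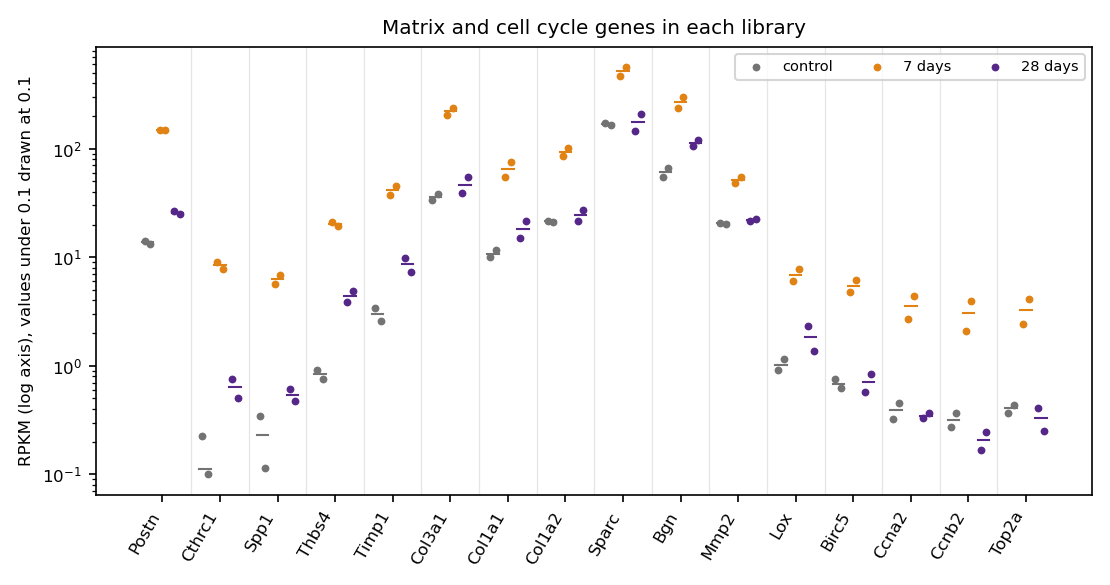
RPKM (log axis) of matrix and cell cycle genes in each control, 7-day and 28-day library, with a line at each group mean. Postn, Cthrc1, Spp1 and Thbs4 have 28-day points between the 7-day points and the controls, while Birc5, Ccna2, Ccnb2 and Top2a have 28-day points close to the controls or below them.

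Fibres other than collagen also lost transcripts. Elastic fibre and microfibril genes had 8 of 18 tested members falling and none rising (median −0.78). Mfap4, a microfibril-associated glycoprotein, went from 62.8 and 68.9 RPKM to 16.7 and 21.3, and fell by 1.77 (SE 0.15, limma adjusted p = 0.00688). Fbn1, fibrillin 1, the core of microfibrils, went from 22.6 and 25.2 to 10.5 and 8.6 RPKM, still above controls at 4.33 and 5.65. At 28 days 15 of the 18 were above both controls (83.3%, against 29.3% of all tested genes). Small leucine-rich proteoglycans, which bind collagen fibrils, had 4 of 8 members falling (Bgn, Lum, Fmod and Aspn; median −0.83). Bgn, biglycan, read 237 and 296 RPKM and later 106 and 119, against 55 and 65.9 in controls.

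Enzymes that build and cut matrix gave calls for a smaller share of their members. Of 19 collagen processing and crosslinking genes, 3 fell, the lysyl oxidases Lox, Loxl2 and Loxl3, which crosslink collagen and elastin (list median −0.53). The rest of that list leaned the same way: 18 of the 19 were below 0, and the unadjusted limma p was under 0.05 for 16 lower and 0 higher. Lox had 6 and 7.74 RPKM at 7 days and 2.32 and 1.37 at 28 days, beside 0.909 and 1.14 in controls. The collagen chaperone Serpinh1 did not pass, at 125 and 159 and then 70.2 and 88.1 RPKM (log2 difference −0.83, limma adjusted p = 0.0597). Of 22 matrix proteases and inhibitors 6 fell and 1 rose. Mmp2, gelatinase A, had 48.2 and 54.7 RPKM at 7 days and 21.5 and 22.7 at 28 days, beside 20.9 and 20.3 in controls.

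Inhibitors of metalloproteinases moved in opposite directions. Timp1 was at 37.4 and 45.3 RPKM at 7 days, at 9.8 and 7.34 at 28 days, and at 3.42 and 2.59 in controls, and fell by 2.21 (SE 0.18, limma adjusted p = 0.00688). Timp4, an inhibitor abundant in heart, was at 16.6 and 19.9 RPKM at 7 days and at 34.3 and 32.8 at 28 days, a rise of 0.87 (SE 0.14, limma adjusted p = 0.0275). Its later values sat at the control levels of 34.4 and 30.9. Timp4 was picked for description after its values were seen.

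Basement membrane genes gave 1 call. Of 14 tested, Sparc alone fell (7.14%, against 2.74% of all tested genes). The unadjusted limma p was under 0.05 for 8 of the 14, all lower, against 15.7% of all tested genes in that direction. The list median was −0.56, and −0.35 without the second 7-day library. Sparc, a collagen-binding protein, went from 466 and 560.2 RPKM to 145 and 210.3, around its controls at 172 and 166. Col4a1, a chain of type IV collagen, was at 105 and 153 RPKM and then at 58.7 and 82, without passing (log2 difference −0.86, limma adjusted p = 0.113). Of 21 tested genes of TGF-beta, activin and BMP signalling, the pathway best known for driving collagen synthesis, none passed in limma. The unadjusted p was under 0.05 for 1 higher and 6 lower genes, and their median of −0.14 was close to that of all genes, ranging from −0.06 to −0.24 as libraries were left out.

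Fibroblast markers fell as well. Of 15 tested markers 8 fell (Col1a1, Col1a2, Lum, Pi16, Thy1, Mfap5, Cd248 and Vim) and none rose, with a median of −0.80. Col1a1, Col1a2, Lum and Mfap5 are also counted on the matrix lists. The summed level of all 15 markers was 1552 and 1548 RPKM at 7 days, 1211 and 1004 at 28 days, and 1091.5 and 1120 in controls. In these bulk samples fewer cells of a type and less RNA per cell cannot be told apart. Smooth muscle and pericyte markers gave no call among 16 in limma (unadjusted p under 0.05 for 2 lower, median −0.17, or −0.06 to −0.27 with 1 library left out). Among 21 endothelial markers Aqp1 alone passed, in the other direction.

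Genes of the dividing cell fell together. Of 40 listed genes of the cell cycle and DNA replication, 28 were expressed highly enough to be tested, and of these 19 fell and none rose (median −1.34; unadjusted limma p under 0.05 for 25 lower and 0 higher). Since the level filter was passed by some of them through the 7-day libraries, the count describes the 28 tested and not all 40. Birc5, survivin, a subunit of the chromosomal passenger complex, was at 4.75 and 6.21 RPKM, then at 0.58 and 0.844, with controls at 0.752 and 0.621. It fell by 2.30 (SE 0.20, limma adjusted p = 0.00688), and its 28-day and control values overlapped. The cyclins Ccnb2 and Ccna2, which drive entry into mitosis and passage through S phase, fell by 2.28 and 2.22. Top2a, the topoisomerase that untangles replicated DNA, went from 2.45 and 4.13 RPKM to 0.407 and 0.25, beside 0.371 and 0.439 in controls. Across the 28 tested genes the 28-day libraries were above both controls for 4 (14.3%), below both for 11 (39.3%) and overlapping for 13. Over all tested genes 29.3% were above both and 25.3% below both. The count of falling genes was 9 with quantile normalization and 2 among genes with a mean of at least 5 RPKM, where most of the list is no longer tested.

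CCAAT, printed above in Ccnb2 and Top2a, is the binding letters of the factor NF-Y. It occurred in the 250 bases before the start for 20 of the 22 cell cycle genes with a RefSeq promoter entry (90.9%), against 40.5% of the 8777 tested genes with one. For the cell cycle homology region TTTGAA the shares were 36.4% and 12.7%. TTTGAA was not particular to this list: it was in 5 of 9 promoters of interferon-inducible GTPases (55.6%) and 3 of 11 of collagens (27.3%). Over all genes that fell the shares were 38.4% for CCAAT and 23.6% for TTTGAA. These are counts of letters in a window and say nothing of binding.

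Macrophage transcripts fell as well. Of 32 tested genes of monocytes and macrophages 18 fell and none rose (median −1.10). Ms4a7, a membrane protein of macrophages, was at 19.3 and 21.4 RPKM, then at 3.15 and 5.17, with controls at 3.81 and 3.34. It fell by 2.19 (SE 0.21, limma adjusted p = 0.0105). Fcgr1, the high-affinity receptor for immunoglobulin G, was at 4.72 and 5.21 RPKM at 7 days. At 28 days it was at 0.942 and 0.904 RPKM, under both controls at 2.41 and 1.95. With a mean of 0.923 RPKM at 28 days, it passed the level filter only through the 7-day libraries. The falling set also held Cd68, Emr1 (F4/80), Lyz2, the C1q chains C1qa, C1qb and C1qc, and the monocyte receptors Ccr2 and Cx3cr1. Over the list, 28-day libraries lay above both controls for 3 genes, below both for 9 (28.1%, against 25.3% of all tested genes) and overlapped them for 20. The summed level of the list's genes in the table was 1053 and 1234 RPKM at 7 days, 613 and 536 at 28 days, and 754 and 699 in controls. The number of calls was 13 with median ratio scaling and 8 with quantile normalization.

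Monocyte chemoattractants made up most of the chemokine calls. Of 22 tested chemokines, cytokines and adhesion molecules, 6 fell (Ccl2, Ccl7, Ccl8, Ccl12, Cxcl16 and the interferon-induced Cxcl10) and none rose (median −0.70, or −0.46 without the second 7-day library). Ccl8, a ligand of monocyte chemokine receptors, was at 34.7 and 56 RPKM and later at 11.8 and 9.75, against 1.51 and 1.67 in controls. It fell by 1.99 (SE 0.23, limma adjusted p = 0.013) and was still well above day 0. Ccl7, a ligand of Ccr2, was at 5.68 and 6.76 RPKM and later at 1.68 and 0.931, under both controls at 2.6 and 2.89. Of 20 complement and acute phase genes 5 fell (median −0.64, or −0.42 without the second 7-day library). Serpina3n, a secreted serine protease inhibitor of the acute phase, read 44.3 and 77.8 RPKM at 7 days, 15.3 and 12.2 at 28 days, and 3.71 and 3.48 in controls. The complement factor Cfb, at 5.13 and 9.1 and then 2.68 and 1.24 RPKM, did not pass (limma adjusted p = 0.0597).

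Presentation of antigen by MHC class II, a function of macrophages and dendritic cells, gave no call among 7 tested genes in limma, although for 6 the unadjusted p was under 0.05, all lower (median −0.51, or −0.34 without the first 28-day library). H2-Aa stood at 85.3 and 92.1 RPKM at 7 days and at 53.1 and 66.6 at 28 days (limma adjusted p = 0.109). Of the T, NK and B cell markers none reached the level filter.

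Interferon-stimulated genes had the most falling members of any list by number though not by share, and unlike the matrix genes they ended below day 0. Of 45 tested, 24 fell (53.3%) and none rose, with a median of −1.28, and an unadjusted p under 0.05 was reached by 43, all lower. The falling share was higher among fibrillar and associated collagens (78.6%), cell cycle (67.9%), matricellular (64.0%) and macrophage genes (56.2%). Ifit3, a protein that binds foreign RNA, was at 29.2 and 47.2 RPKM at 7 days and at 5.4 and 11.2 at 28 days, while its controls were at 48.9 and 20.8. It fell by 2.18 (SE 0.34, limma adjusted p = 0.0269), and its 7-day values lay within the range of the controls. Zbp1, a sensor of Z-form nucleic acid, was at 5.95 and 10.5 RPKM, then at 1.32 and 1.28, with controls at 5.88 and 2.6. Dhx58, a helicase of the RIG-I family, fell by 2.18 as well, from 4.21 and 5.76 to 0.61 and 0.788 RPKM. With a mean of 0.699 RPKM at 28 days, it passed the level filter only through the 7-day libraries. Both 28-day libraries were below both controls for 39 of the 45 genes (86.7%, against 25.3% of all tested genes) and above both for 1.

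Among 16 tested interferon-inducible GTPases, which act against pathogens inside cells, 3 fell (Gbp2, Gbp3 and Ifi47, the last also counted above), and the median was −0.89. All 16 had 28-day libraries below both controls, against 25.3% of all tested genes. Their summed level was already below day 0 at 7 days: 333 and 359 RPKM in controls, 158 and 209 at 7 days, and 64.1 and 133 at 28 days. Gbp3 was at 15.1 and 19 RPKM at 7 days, 3.07 and 6.84 at 28 days, and 23.2 and 13.8 in controls. Of 18 MHC class I genes, whose transcription interferon also raises, H2-T24 alone fell (median −0.31).

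The 28-day libraries differed from each other in these genes. Against the mean of the 7-day libraries, the median of the interferon-stimulated list was −1.61 in the first 28-day library and −0.91 in the second, and that of the GTPases −1.45 and −0.40. MHC class I gave −0.74 and −0.08. Without the second 28-day library 41 of the 45 interferon-stimulated genes and 13 of the 16 GTPases passed, and without the first 21 and 2 did. Quantile normalization left 7 and 0 calls. The response element printed above for Ifit3, Gbp3 and Cxcl10 occurred in 11 of 34 interferon-stimulated promoters (32.4%) and 8 of 9 GTPase promoters (88.9%), against 3.17% of all tested genes and 10.2% of the 216 falling genes with an entry. No promoter of the 21 rising genes with an entry held it. The other motifs searched were AGGTCA, the ROR response element, and the heat shock element (GAA, TTC and GAA, each 2 bases apart). They occurred in 12.5% and 0.926% of falling genes and in 12.9% and 0.467% of all. AGGTCA was in 5 of the 21 rising promoters (23.8%) and in 4 of 16 clock promoters. Of the 4 called clock genes with an entry 0 held it. A raised share was not particular to these sets, since AGGTCA was also in 7 of 25 macrophage promoters (28.0%).

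**Figure D4:**
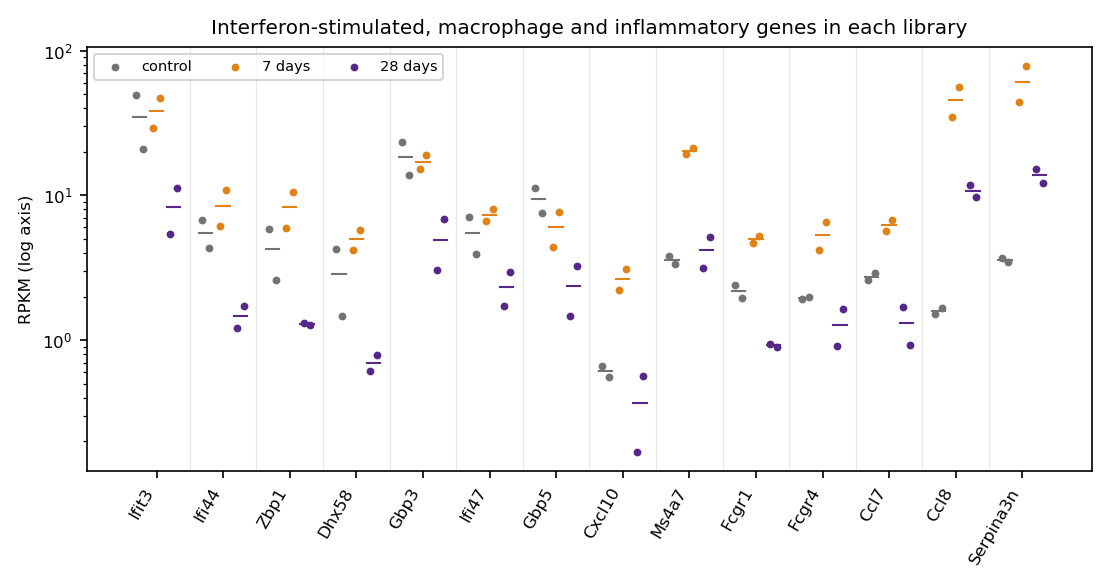
RPKM (log axis) of interferon-stimulated, macrophage and inflammatory genes in each library, with a line at each group mean. From Ifit3 to Gbp5 the 28-day points are below both controls, whereas Ccl8 and Serpina3n at 28 days are below 7 days but above both controls.

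Some falling genes belonged to other cell types or to stress responses. Sprr1a, a small proline-rich protein of stressed myocytes, was at 10.7 and 5.91 RPKM and then at 1.1 and 0.405, and is listed at 0 in both controls. It fell by 2.82 (SE 0.34, limma adjusted p = 0.0142), and passed the level filter only through the 7-day libraries (mean 0.751 RPKM at 28 days). Angptl4, an inhibitor of lipoprotein lipase, was at 22.5 and 25.3 RPKM, then at 7.14 and 2.42, below both controls at 14 and 11.9. Ace, the enzyme that makes Ang II from its precursor, went from 20.4 and 25.9 to 12 and 11.9 RPKM, and fell by 0.92 (SE 0.15, limma adjusted p = 0.0294), and was the only call among 9 tested renin-angiotensin genes. Apln, a peptide whose receptor opposes Ang II effects on vessels, went from 7.31 and 6.27 to 1.89 and 3.28 RPKM, under its controls at 3.95 and 4.27. Median ratio scaling or quantile normalization left neither Ace nor Apln past the threshold.

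Hbb-b2, an adult beta globin, had 14.1 and 4.25 RPKM at 7 days and 0.0281 and 0 at 28 days. Because Hbb-b2 is nearly identical to Hbb-b1, reads could be split between them, and the value is uncertain. The 7 red cell markers in the table had a summed level of 41.1 and 47.8 RPKM at 7 days and 28.2 and 28.7 at 28 days, and of the 4 tested Hbb-b2 was the only one to pass. Chac1, a glutathione-degrading target of ATF4, was the only call among 25 genes of endoplasmic reticulum stress, at 2.75 and 4.36 and then 0.814 and 1.26 RPKM. Cybb, the catalytic subunit of the phagocyte NADPH oxidase, fell by 1.08 (SE 0.19, limma adjusted p = 0.0343), and Gpx7 was the other call among 29 redox genes.

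Clock genes and clock outputs were among the genes that rose. Of 21 tested clock and output genes, 4 rose (Dbp, Per2, Per3 and Tef) and Arntl fell, with a list median of 0.32 that was 0.09 without the second 7-day library. Dbp, a transcription factor driven directly by the clock, was at 2.92 and 1.79 RPKM at 7 days and at 13.9 and 17 at 28 days, while controls were at 54.7 and 49. It rose by 2.51 (SE 0.22, limma adjusted p = 0.00688) and lay between the 7-day libraries and day 0. Per2, a repressor of the core loop, was at 0.238 and 0.603 RPKM, then at 2.76 and 3.05, with controls at 7.45 and 6.02. Per2 and Per3, at mean levels of 0.421 and 0.876 RPKM at 7 days, passed the level filter only through the 28-day libraries. Tef, a relative of Dbp, was picked for description after its values were seen, and was at 13.3 and 11.2 RPKM, then at 25.7 and 23.9, with controls at 58.3 and 51.9.

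Arntl (Bmal1), the activator that binds E-boxes with Clock, had 9.54 and 9.49 RPKM at 7 days, 4.36 and 4.58 at 28 days, and 0.191 and 0.861 in controls. It fell by 1.01 (SE 0.13, limma adjusted p = 0.0142), although with all 6 libraries in the fit its adjusted p was 0.0956. For each of Dbp, Per2, Per3, Tef and Arntl the 28-day values therefore lay between those of the other groups. Clock transcripts swing through the day, and since the labels give no collection time, time of day and duration of infusion cannot be told apart. The E-box CACGTG, shown above in Tef, occurred in 5 of 16 clock promoters with an entry (31.2%) and in 10.1% of all tested genes. Of the 4 called clock genes with an entry 1 held it, as did 2 of the 21 rising genes with one (9.52%). No call came from 17 glucocorticoid-responsive genes in limma, with unadjusted p under 0.05 for 5 higher and 1 lower (median 0.38), nor from 24 immediate early genes, with 2 higher and 1 lower (median 0.03). Neither median was stable: that of the glucocorticoid list was −0.01 without the first 7-day library and 0.67 without the second, and that of the immediate early list 0.25 and −0.25.

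Sarcomere and cytoskeleton genes gave a few single rises. Tcap, telethonin, which caps titin at the Z disc, was at 688 and 643 RPKM at 7 days and at 1612 and 1633 at 28 days. It rose by 1.29 (SE 0.14, limma adjusted p = 0.013), and its later values exceeded the controls at 1429.8 and 1442. Myom2, an M band protein, was at 169 and 161 RPKM and then at 259.5 and 339.8, with controls at 239.6 and 226. Its rise of 0.85 (SE 0.16, limma adjusted p = 0.0463) did not pass with quantile normalization or without the second 28-day library. These 2 were the only calls among 25 adult sarcomere and Z disc genes (median 0.19, or 0.08 without the second 7-day library). Tuba8, an alpha tubulin of muscle and testis, was at 77.7 and 68.6 RPKM at 7 days and 178 and 157 at 28 days, far above its controls at 53.9 and 63.4. It rose by 1.19 (SE 0.14, limma adjusted p = 0.013), whereas Vim and Stmn1 fell on the same list of 26 genes.

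Other rises had varied relations to day 0. Syt12, a synaptotagmin of vesicle traffic, was at 1.14 and 1.35 RPKM, then at 6.07 and 4.47, with controls at 0.41 and 0.621. It rose by 1.71 (SE 0.19, limma adjusted p = 0.013) from a level already above day 0. Nab2, a corepressor of the EGR factors, was at 3.89 and 2.54 RPKM at 7 days and at 7.91 and 8.96 at 28 days. Its controls were at 2.82 and 2.98 RPKM, so that only the 28-day libraries stood apart. Gnb3, a G protein beta subunit, went from 2.74 and 2.15 to 6.59 and 7.92 RPKM, also past its controls at 4.83 and 3.58. Adh1, an alcohol and retinol dehydrogenase, went the other way relative to day 0: it was at 5.01 and 5.86 RPKM and then at 12.4 and 15.6, short of controls at 28.5 and 20.4. Aqp1, the water channel of endothelium, was at 92.1 and 83.4 and then 136 and 172 RPKM, also short of 227 and 191 in controls, and its call (limma adjusted p = 0.0481) was lost without the second 28-day library.

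Transcripts that mark atrial myocytes rose, with day 0 libraries that did not agree among themselves. Of 12 tested markers 3 rose (Myl7, Myl4 and Fgf12) and none fell, with a median of 0.62. Fgf12 and Bmp10 passed the level filter only through the 28-day libraries (mean 0.268 and 0 RPKM at 7 days, 1.83 and 2.51 at 28 days). The count and the median are therefore partly set by that filter. Myl7, the atrial regulatory myosin light chain, was at 41.2 and 66.2 RPKM at 7 days, 341 and 182 at 28 days, and 52.5 and 646 in controls. It rose by 2.24 (SE 0.33, limma adjusted p = 0.0223), but the controls spanned nearly the whole range. Myl4, the essential light chain of atria, behaved likewise, at 52.6 and 53, then 263 and 150.5, with controls at 32.4 and 473 RPKM. Sarcolipin (Sln), which restrains the calcium pump in atria, was at 12.2 and 24.4 and then 163 and 55.1 RPKM and did not pass (log2 difference 2.42, limma adjusted p = 0.061).

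The summed level of the atrial markers was 2065 and 2260 RPKM at 7 days, 2468 and 3463 at 28 days, and 352 and 3088 in controls. Nppa, which myocytes outside the atria also make under load, carried most of that sum in every library. Without Nppa the other 11 markers summed to 134 and 176 RPKM at 7 days, 819.7 and 423 at 28 days, and 137 and 1484 in controls. None of them is at 0 in all libraries. With all 6 libraries in the fit, no atrial marker passed, and adjusted p was 0.239 for Myl7 and 0.323 for Myl4. The amount of atrial tissue in each sample was not given, and its part in these rises was not tested.

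**Figure D5:**
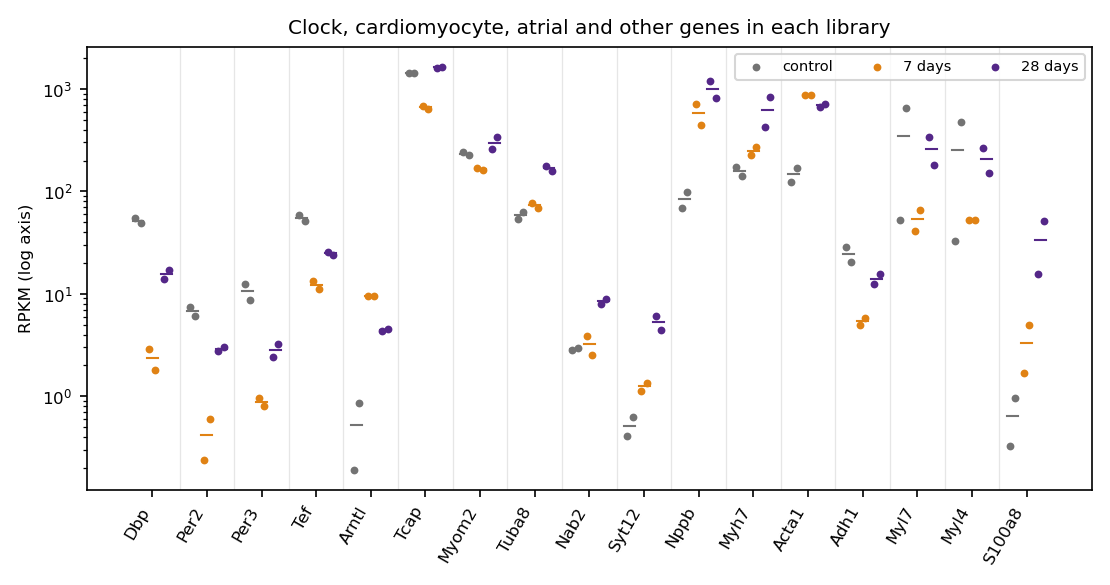
RPKM (log axis) of clock, cardiomyocyte, atrial and other genes in each library, with a line at each group mean. For Dbp, Per2, Per3, Tef, Adh1 and Arntl the 28-day points lie between 7 days and control, for Tuba8, Nab2 and Syt12 they are the highest, and the Myl7 and Myl4 controls are split.

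Fetal and hypertrophic myocyte genes, the classic markers of pressure load, gave calls in both directions, and most were above day 0 at 28 days. Of 25 tested, 2 rose (Myl4 and Myl7, described above) and 2 fell (Ace and Uchl1). The falling share was 8.0%, while over all tested genes 2.74% fell and 0.252% rose. The list median was 0.17 (−0.01 without the first 28-day library and 0.34 without the second). For 20 of the 25 (80.0%, against 29.3% of all tested genes) both 28-day libraries were above both controls. Nppb, brain natriuretic peptide, read 711 and 444 RPKM at 7 days and 1188 and 816 at 28 days, against 68.5 and 99.2 in controls (log2 difference 0.81, SE 0.27, limma adjusted p = 0.184). Myh7, the fetal and slow myosin heavy chain, was at 227 and 272 and then 421 and 834 RPKM, beside 173 and 141 in controls (log2 difference 1.25, SE 0.30, limma adjusted p = 0.0891). In both genes every 28-day value was above every 7-day value, yet neither passed. Acta1, skeletal alpha actin, was at 870.0 and 875 RPKM and then 666 and 719.8, above controls at 125 and 170.4 (log2 difference −0.33, SE 0.13, limma adjusted p = 0.26). Nppa, atrial natriuretic peptide, overlapped between groups, at 1932 and 2084 and then 1648 and 3039.6 RPKM, and its log2 difference of 0.16 turned to −0.28 without the second 28-day library.

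In limma 3.0% of all tested genes passed, and metabolic and housekeeping lists gave no calls. They comprised 36 genes of fatty acid oxidation (median 0.02; unadjusted p under 0.05 for 2 higher and 3 lower), 22 of the tricarboxylic acid cycle (0.08; 1 higher), 72 of oxidative phosphorylation (0.10; 2 higher) and 78 cytosolic ribosomal proteins (0.07; 3 in each direction). Each of these medians was above that of all genes, −0.13, and was small. With 1 library left out they ranged from −0.09 (fatty acid oxidation, without the first 28-day library) to 0.25 (oxidative phosphorylation, without the first 7-day library). Idh2, mitochondrial isocitrate dehydrogenase, was at 737 and 654 RPKM and then 1035 and 1246, over its controls at 864 and 798 (log2 difference 0.71, limma adjusted p = 0.0736). Ucp3, a mitochondrial carrier induced by fatty acids, was at 28.9 and 20.4 and then 12.8 and 7.72 RPKM, with controls at 45.2 and 40.6 (log2 difference −1.24, limma adjusted p = 0.0597). For 20 of the 36 genes of fatty acid oxidation (55.6%, against 25.3% of all tested genes) both 28-day libraries were below both controls, and for 3 above both. Heat shock genes gave no call among 26 (unadjusted limma p under 0.05 for 4 higher and 2 lower, median 0.05, or 0.02 to 0.08 with 1 library left out). For 18 of them (69.2%, against 29.3% of all tested genes) the 28-day libraries were above both controls. Hspb1, a small chaperone of the sarcomere, was at 85.4 and 91.1 and then 133 and 125 RPKM, beside 46.4 and 47.9 in controls (limma adjusted p = 0.0773).

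Among neutrophil markers, S100a8 alone passed. S100a8, a calcium-binding alarmin of neutrophils, was at 1.7 and 4.97 RPKM at 7 days, 15.5 and 51.8 at 28 days, and 0.328 and 0.96 in controls. It rose by 3.06 (SE 0.60, limma adjusted p = 0.0484), the largest of the rises named here, and did not pass with quantile normalization, with a pseudocount of 0.1 or without the mean-variance trend. Its partner S100a9 was at 4.19 and 6.56 and then 15.1 and 64.4 RPKM (limma adjusted p = 0.0882). Of 13 neutrophil markers 4 were tested, and Retnlg passed the level filter only through the 28-day libraries (mean 0.815 RPKM at 7 days, 4.83 at 28 days). Elane and Mpo were at 0 in all libraries, and the summed level of all in the table was 13.2 and 26.1 RPKM at 7 days, 38.4 and 129 at 28 days, and 5.46 and 4.62 in controls. The second 28-day library was the higher of the pair for S100a8, for S100a9 and for Retnlg, another neutrophil marker, at 2.24 and 7.42 RPKM. The fourth tested marker, Lcn2, a siderophore-binding protein, lay the other way, at 6.03 and 12.4 RPKM at 7 days and 4.21 and 2.57 at 28 days (log2 difference −1.27, limma adjusted p = 0.114).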

How the data were processed

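RNA of mouse hearts was sequenced on an Illumina instrument, per the labels' protocols. The authors deposited RPKM per gene, per the file headers, with no counts. Bowtie 0.12.9, TopHat2 2.0.12, DESeq2 and HTSeq are named in the submitters' processing notes, with the builds mm8 and mm9 and no role for each. Which tool and annotation produced the RPKM is not given in the sources used here. Since the reference at hand is GRCm38, genes were matched by symbol and only promoter windows carry its coordinates. RPKM keeps no read totals, so absolute depth is unknown.

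Of the 22556 symbols, 90 were merged and 25 turned into dates by the authors' table, and 731 were short RNA genes, of which 14 were tested. RPKM were transformed to log2(RPKM + 0.5), a scale that understates changes of genes at a low level. Genes with a mean of at least 1 RPKM over the 4 libraries were fitted in limma 3.58.1 (R 4.3.3) with a mean-variance trend, 2 residual and 4.85 prior degrees of freedom, and Benjamini-Hochberg adjustment over all 11115 genes. A call is an adjusted p under 0.05, and the highest called was 0.0498 and the lowest not called 0.0501. The fit was tested on simulated data.

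Genes were named as the 15 largest differences in each direction among calls without overlap, up to 4 members of each list with the largest differences, and 15 genes fixed by name, of which 1 is not reported here. Other names, given with a list's count or as examples, were chosen after their values were seen. The comparison, the lists and the markers were chosen with earlier results of these data known. Lists are described by counts and medians, without a test. A member low in 1 group could be tested through its level in the other, which bears on these counts and medians. Promoters covered 8777 of the 11115 genes, and motifs were searched on both strands.

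Alternatives were other pseudocounts (0.1 and 1), no filter or a mean of at least 5 RPKM, median ratio scaling, quantile normalization, no trend, all 6 libraries, a replicate block, leaving out each library, and an unadjusted p with a fold over 1.5. Leaving out short RNA genes was added after seeing the data.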

Additional observations from a re-analysis of the deposited data

How the results depend on the processing

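The numbers of genes that rose and fell, 28 and 305, depended on several choices. With no filter on low values 0 rose and 2 fell among 17246 genes. A mean of at least 5 RPKM left 168 falling among 6631 genes tested. Median ratio scaling gave 43 and 180, quantile normalization left 101 falling, and all 6 libraries gave 49 and 507. An unadjusted p under 0.05 with a fold over 1.5 gave 104 and 799. Leaving out 1 library gave 1 to 88 genes that rose and 4 to 531 that fell, the lowest without a 7-day library (3 and 4, or 1 and 5) and the highest without the second 28-day library. The cause was not tested. Pseudocounts of 0.1 and 1, no trend and no short RNA genes stayed within 1.5 times of both counts. The replicate block gave 30 and 330, and of the 333 calls 279 passed under it. In this balanced design the block changes no log2 difference, so signs under it carry no information. The deviations of same-numbered libraries correlated at −0.02 over genes, so the numbers were not taken as pairs. Under the block 38 interferon-stimulated genes fell against 24, 6 GTPases against 3, and 2 complement genes against 5. Signs turned for Ctgf (−0.13 without the second 7-day library, −0.10 without the first 28-day library) and Nppa (−0.28 without the second 28-day library, in a range up to 0.60 over the libraries left out). Of 684 list medians under alternatives, 21 had the opposite sign. The 684 include those under the replicate block, no trend and all 6 libraries, which cannot differ from the main fit. With 2 libraries a group and 2 residual degrees of freedom, calls near the threshold are weakly supported, and leaving out 1 library assumes that the lone one varies like the other group.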

Other observations

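Several gene families, chosen after their values were seen, also held falling members. Of 11 tested cathepsins, the proteases of the lysosome, 5 fell (Ctsb, Ctsc, Ctsk, Ctss and Ctsz) and none rose, with a median of −0.81. Ctss is also counted among the macrophage genes, and Ctsh, which did not pass, among those of MHC class II. Ctsk, which digests collagen, was at 8.55 and 7.2 RPKM at 7 days and at 3.93 and 3.78 at 28 days, beside 3.24 and 3.37 in controls (log2 difference −0.94, limma adjusted p = 0.0254). Ctsb, the most abundant of those named, went from 139 and 144 to 83.8 and 76.6 RPKM, with controls at 81.9 and 82.3. Of 5 tested Schlafen genes, regulators of leukocyte proliferation and RNA, Slfn1, Slfn2 and Slfn8 fell. Slfn2 was at 11.7 and 14.2 RPKM, then at 5.13 and 4.61, under both controls at 12.6 and 9.22, as most interferon-stimulated genes were. C-type lectin domain genes had 5 of 15 tested members falling.

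Some rises of myocyte genes fell outside the lists as well, again chosen after their values were seen. Lrrc10, a leucine-rich repeat protein specific to cardiac myocytes, was at 79.6 and 63.8 RPKM at 7 days and at 153 and 125 at 28 days, above both controls at 102 and 96.8 (log2 difference 0.95, SE 0.17, limma adjusted p = 0.0357). Penk, the precursor of enkephalins, was at 1.08 and 1.27 and then 3.24 and 2.84 RPKM, beside 3.07 and 1.67 in controls (log2 difference 1.08, SE 0.17, limma adjusted p = 0.0273). Neither passed without the first 28-day library.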
